A study of Mus musculus with 9 samples.

Results

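The 10 genes described here were grouped as cyclin-dependent kinase (CDK) inhibitors and antiproliferative genes. They are the CDK inhibitors Cdkn1a, Cdkn1b, Cdkn2c and Cdkn2d, the antiproliferative BTG genes Btg1, Btg2 and Btg3, the arrestin-like gene Txnip, and the G-type cyclins Ccng1 and Ccng2. They were taken by name, with every probe set that the platform annotation gives them: 19 probe sets of the 45037 on the array that are not controls. Of the 10 genes, 9 had a probe set annotated to them alone, and all 9 were among the 11961 genes bright enough to test, of 18193 genes on the array. The tenth, Btg3, was covered only by a probe set shared with another gene. RNA came from mouse bone marrow cells sorted for absence of lineage markers and presence of CD117 (Kit), SCA-1 and CD135 (Flt3), a gate that holds multipotent progenitors with lymphoid potential. The 9 arrays were 3 of E2A-/- mice, which lack the E proteins encoded by Tcf3, 3 of Lyl1-/- mice, which lack Lyl1, a factor of the same class that pairs with them, and 3 of wild-type (WT) mice, used as the controls. The labels call the 3 of each genotype biological replicates and give no age, strain, sex or description of the alleles.

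CDK inhibitors bind cyclin-CDK complexes and hold cells in G1. The Cip/Kip proteins Cdkn1a (p21) and Cdkn1b (p27) act on several complexes, whereas the INK4 proteins Cdkn2c (p18) and Cdkn2d (p19) bind the D-cyclin kinases. BTG proteins slow proliferation in part by bringing the CCR4-NOT deadenylase to messenger RNAs, and Txnip binds thioredoxin and restrains glucose uptake. Cdkn1a, Btg2 and Ccng1 are classical p53 targets, Ccng2 and Cdkn1b are targets of FOXO factors, and several of these genes are known for their part in keeping blood stem and progenitor cells quiescent. E proteins and Lyl1 bind DNA as dimers at the E-box, whose letters are CANNTG.

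The genotype was checked first. Lyl1 had an intensity of 89.6, 79.2 and 92.0 in Lyl1-/- cells, against 1429, 1352 and 1443 in WT cells, which is -4.01 on the log2 scale (limma adjusted p = 5.6e-05, SE 0.17). In E2A-/- cells Lyl1 had 1222, 825 and 900, a log2 difference of -0.53 from WT that did not pass (limma adjusted p = 0.399, SE 0.17). Tcf3 had 172, 193 and 121 in E2A-/- cells, against 205, 164 and 195 in WT cells (log2 difference -0.19, limma adjusted p = 0.888), so its probe set, whose place relative to the deletion is unknown here, does not check that label. Of the gate genes, Flt3 had 1141, 1217 and 863 in E2A-/- cells and 672, 742 and 1136 in Lyl1-/- cells, against 1302, 1052 and 1254 in WT cells. Kit had 493, 428 and 327 in E2A-/- cells and 379, 397 and 314 in Lyl1-/- cells, against 508, 465 and 474 in WT cells. Every Lyl1-/- array lay below every WT array for Kit, by -0.40 on the log2 scale (limma adjusted p = 0.572), and Ly6a (SCA-1) was not analysed here. Several arrays stand apart. WT 1 and WT 3 were closer to each other than any other pair, with 0 probe sets differing by over 2-fold, and may be 1 RNA hybridised again although the labels call them separate replicates, which was not settled. They entered the fit as 1 sample, so WT counts as n = 2 and the WT spread is that between their mean and WT 2. E2A-/- 2 and 3 carried granulocyte transcripts. The 15 genes on the array of an 18-gene granulocyte and monocyte list summed to 2743, 18600 and 21170 in E2A-/- cells. The sums were 4594, 4043 and 2772 in Lyl1-/- cells, against 3236, 2508 and 3192 in WT cells. Not all listed genes rose. On E2A-/- 2 and 3 S100a8 had 5524 and 6214, against 446, 335 and 470 in WT cells. On the same 2 arrays Csf3r had 476 and 365, against 551, 339 and 532 in WT cells. Lyz2 had 633 and 1054 there, against 872, 541 and 845 in WT cells. The list for erythroid cells (9 genes of 11 on the array) summed to 1913 to 3527 in E2A-/- cells and 1384 to 1836 in Lyl1-/- cells, against 1745 to 2424 in WT cells, with Car2 a large share of each sum. Gene by gene, 7 of 8 tested erythroid genes were above WT in E2A-/- cells (4 at an unadjusted p under 0.05, 0 called, median log2 difference 0.67) and 0 of 8 in Lyl1-/- cells (0 at an unadjusted p under 0.05, median -0.22). That unadjusted p was reached by 8.57% of all genes in E2A-/- cells and 8.80% in Lyl1-/- cells, both directions. Car1, a carbonic anhydrase of red cell precursors, had 741, 199 and 638 in E2A-/- cells and 133, 109 and 126 in Lyl1-/- cells, against 196, 131 and 182 in WT cells. The list for B and plasma cells (8 of 10) summed to 1619 to 2482 in E2A-/- cells and 2023 to 3002 in Lyl1-/- cells, against 2521 to 3442 in WT cells. Over all 9 arrays, the lists for T and NK cells (9 of 12) summed to 685 to 728, for macrophages and dendritic cells (11 of 12) to 908 to 1087, and for stromal and endothelial cells (10 of 10) to 682 to 1131, highest on WT 2. Xist, transcribed in females, was high on E2A-/- 2 (1811) and on Lyl1-/- 1 and 2 (2628 and 2787) and between 49.2 and 57.5 on the other arrays. The actin 3′ to 5′ ratio, a sign of RNA quality, was 10.1 on E2A-/- 2 and 10.6 on WT 2, against 2.85 to 4.23 elsewhere. The geometric mean intensity of the spiked hybridisation controls was 1381, 1941 and 3604 in E2A-/- cells and 2566, 2115 and 3023 in Lyl1-/- cells, against 1501, 1552 and 1485 in WT cells, so every Lyl1-/- array lay above every WT array. Every intensity sits on a floor of 42.1 or more, so no marker can be called absent and differences of dim genes are understated.

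Promoter sequences are shown for the 4 genes on which the comparison of the knockouts turns, because both missing factors belong to E-box binding complexes. Each window runs from 250 bases before to 50 bases after the RefSeq start site on GRCm38.p6 and is written 5′ to 3′ on the gene's strand. Cdkn1a (chromosome 17, 29090979 to 29100722) has 2 start sites, with windows chr17:29090729-29091028 and chr17:29093519-29093818 on the plus strand. The windows of Btg1 (chromosome 10, 96617001 to 96622813), Btg2 (chromosome 1, 134074865 to 134079155) and Txnip (chromosome 3, 96557957 to 96561857) are chr10:96616751-96617050 on the plus strand, chr1:134079106-134079405 on the minus strand and chr3:96557707-96558006 on the plus strand.
Cdkn1a, upstream start: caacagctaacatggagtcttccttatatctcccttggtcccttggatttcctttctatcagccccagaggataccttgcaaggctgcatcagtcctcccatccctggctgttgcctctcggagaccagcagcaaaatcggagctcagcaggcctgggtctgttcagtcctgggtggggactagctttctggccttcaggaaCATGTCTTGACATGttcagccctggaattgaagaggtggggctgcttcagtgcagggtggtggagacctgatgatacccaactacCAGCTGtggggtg
Cdkn1a, downstream start: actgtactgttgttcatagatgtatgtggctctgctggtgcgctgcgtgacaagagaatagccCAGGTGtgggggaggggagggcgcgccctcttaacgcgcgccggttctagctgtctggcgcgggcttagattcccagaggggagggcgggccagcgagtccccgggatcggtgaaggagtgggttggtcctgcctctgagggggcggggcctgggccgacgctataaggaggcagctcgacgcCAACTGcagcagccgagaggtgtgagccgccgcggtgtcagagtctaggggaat
Btg1: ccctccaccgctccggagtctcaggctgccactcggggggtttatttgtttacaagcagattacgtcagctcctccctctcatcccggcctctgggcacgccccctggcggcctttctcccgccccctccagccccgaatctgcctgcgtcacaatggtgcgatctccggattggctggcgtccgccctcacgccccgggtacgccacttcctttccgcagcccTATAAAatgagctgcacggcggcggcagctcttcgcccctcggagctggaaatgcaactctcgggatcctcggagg
Btg2: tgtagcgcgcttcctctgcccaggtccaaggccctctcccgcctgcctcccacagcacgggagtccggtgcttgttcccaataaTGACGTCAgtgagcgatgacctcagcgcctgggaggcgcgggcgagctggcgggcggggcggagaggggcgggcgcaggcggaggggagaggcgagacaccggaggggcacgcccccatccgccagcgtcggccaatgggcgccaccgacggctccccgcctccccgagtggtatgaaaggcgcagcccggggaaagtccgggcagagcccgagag
Txnip: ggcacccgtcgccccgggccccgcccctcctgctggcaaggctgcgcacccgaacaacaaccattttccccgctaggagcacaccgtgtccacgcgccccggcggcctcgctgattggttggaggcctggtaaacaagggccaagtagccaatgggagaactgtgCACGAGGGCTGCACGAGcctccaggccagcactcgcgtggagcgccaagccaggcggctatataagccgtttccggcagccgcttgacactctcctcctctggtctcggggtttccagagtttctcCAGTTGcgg
Capitals mark E-boxes and 4 other motifs, searched on both strands. The E-box CANNTG, which 72.3% of 32851 RefSeq promoter windows of this length hold, is CAGCTG at position +38 of the upstream Cdkn1a window, CAGGTG at -187 and CAACTG at -4 of the downstream one, and CAGTTG at +42 of Txnip. Btg1 and Btg2 have no CANNTG in these windows. The upstream Cdkn1a window holds CATGTCTTGACATG at -48, a pair of CATG cores 6 bases apart as in a p53 site (a pair at that spacing is in 0.712% of windows). Btg1 holds TATAAA at -26 (13.6% of windows) and Btg2 the cAMP response element TGACGTCA at -166 (1.79%). Txnip holds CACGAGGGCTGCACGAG at -85, a pair of CACGAG 5 bases apart, the carbohydrate response element known from the human gene, and is the 1 window of all those searched that holds such a pair (0.00304%). The last 4 motifs were chosen after values and sequences had been seen, and a match describes letters, not binding.

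Of the 9 tested genes, 1 passed the test: Cdkn1a, in Lyl1-/- cells relative to WT cells, a comparison in which 0.192% of all genes passed. Its brighter probe set (1424638_at) had an intensity of 145, 150.1 and 151 in E2A-/- cells and of 272, 254 and 192 in Lyl1-/- cells, against 119, 115 and 119 in WT cells. All Lyl1-/- arrays lay above all E2A-/- arrays, and all E2A-/- arrays above all WT arrays. The means were 149 ± 3.02 in E2A-/- cells and 239 ± 42.2 in Lyl1-/- cells (SD, n = 3 each), against 117 ± 3.14 in WT cells (SD, n = 2). Relative to WT cells, Cdkn1a rose in Lyl1-/- cells, by a log2 difference of 1.02 (SE 0.15, 95% interval 0.68 to 1.35, 2.02-fold, limma adjusted p = 0.0477). In E2A-/- cells it was 0.35 above WT (SE 0.15, interval 0.01 to 0.68, limma adjusted p = 0.565) and did not pass. Adjusted p-values are Benjamini-Hochberg values over all 11961 genes, with a threshold of 0.05. In bulk RNA, a change in the share of cells of a type and a change in RNA per cell cannot be told apart.

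The call for Cdkn1a was near the threshold. It held in 10 of 24 alternative analyses, with the log2 difference between 0.70 and 1.22 in all of them, and was lost without WT 2 (0.99, limma adjusted p = 0.494), without any 1 of the E2A-/- arrays (1.02, adjusted p between 0.0800 and 0.0846), without Lyl1-/- 1 (0.92, adjusted p = 0.179) or without Lyl1-/- 2 (0.97, adjusted p = 0.259). Lyl1-/- 1 and 2, the arrays with Xist signal, with less Flt3 and with the higher sums of granulocyte and monocyte transcripts within that genotype, were 1.22 and 1.12 above the WT mean on the log2 scale, and Lyl1-/- 3 was 0.71 above it. The difference was 0.86 with Xist signal as a covariate (limma adjusted p = 0.209) and 0.71 on arrays without it (adjusted p = 0.830), where Lyl1-/- 3 stands alone for its genotype. The spiked controls were also above WT on all Lyl1-/- arrays, and Kit below it. The part of Flt3 and Kit level, of the granulocyte transcripts and of the spiked controls was not tested. A dimmer Cdkn1a probe set (1421679_a_at) had 114, 88.5 and 111 in E2A-/- cells and 117, 128 and 97.4 in Lyl1-/- cells, against 89.4, 83.4 and 90.2 in WT cells. Its Lyl1-/- arrays were likewise all above the WT arrays, by 0.39 on the log2 scale (SE 0.15), but the difference did not pass in the fit over 24212 probe sets (limma adjusted p = 0.510), which called 0.26% of them and in which 1424638_at passed (adjusted p = 0.0363). Among the tested genes, 12.2% lay above WT without overlap in Lyl1-/- cells, with WT 1 and WT 3 averaged.

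**Figure D1:**
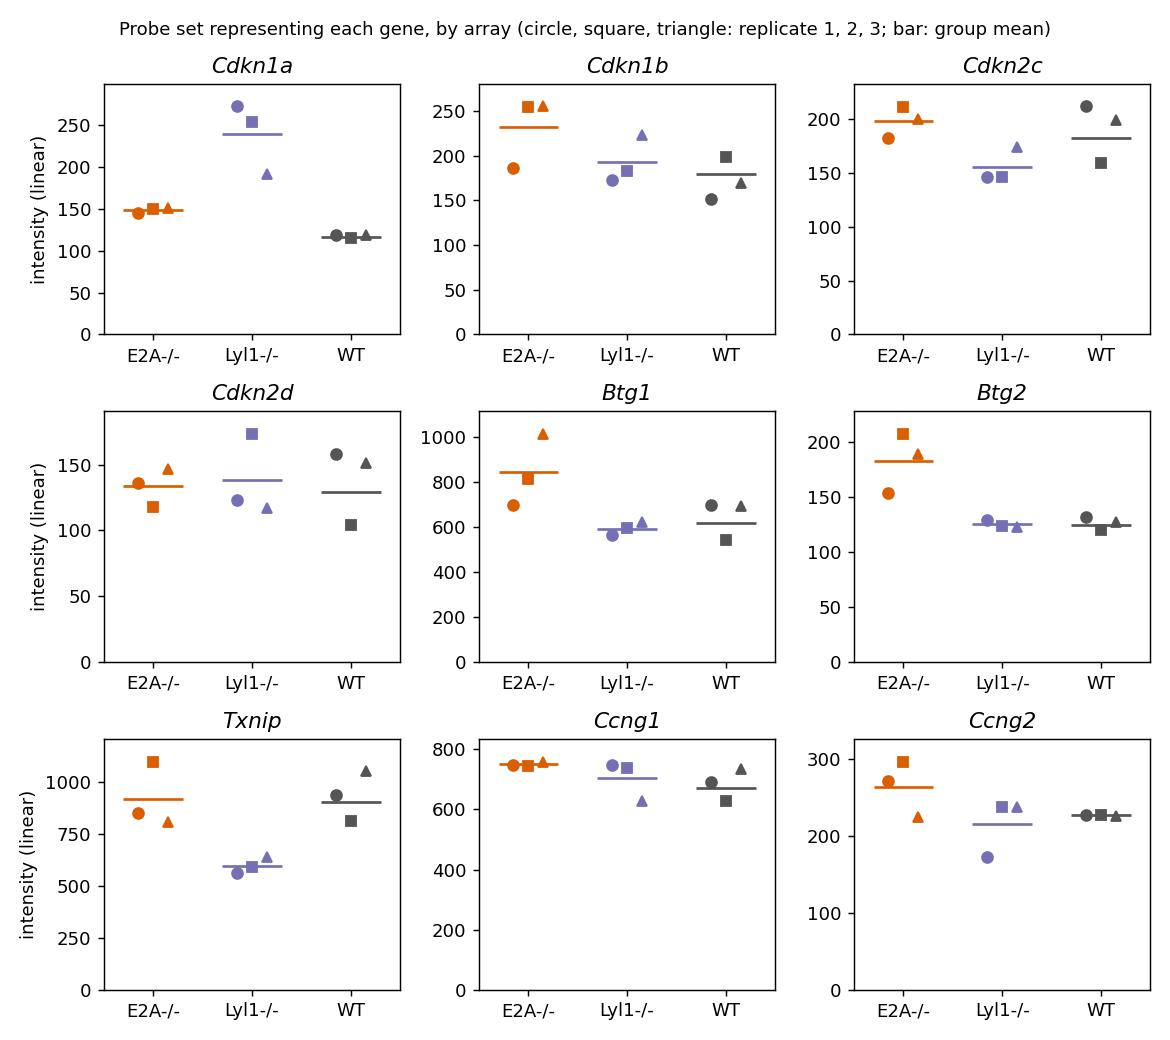
Intensity (linear scale) of the probe set that represents each of 9 genes, on every array, by genotype. Points are arrays and bars are group means, with WT 1 and WT 3 averaged first. Cdkn1a separates the 3 genotypes without overlap, Btg2 is above WT on the 3 E2A-/- arrays, and Txnip is below WT on the 3 Lyl1-/- arrays.

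The other CDK inhibitors gave no call in any comparison. Cdkn1b (chromosome 6, 134920401 to 134925525) had 186, 254 and 255 in E2A-/- cells and 173, 182 and 223 in Lyl1-/- cells, against 152, 198 and 170 in WT cells. E2A-/- 2 and 3 were higher than any other array, and E2A-/- 1 lay within the WT range, so the genotypes overlapped. The log2 difference from WT was 0.36 in E2A-/- cells (interval -0.05 to 0.77, limma adjusted p = 0.660) and 0.10 in Lyl1-/- cells (interval -0.31 to 0.51, adjusted p = 0.955). Without E2A-/- 2 and 3, the arrays with granulocyte transcripts, the E2A-/- difference was 0.06.

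Of the INK4 genes, Cdkn2c (chromosome 4, 109660876 to 109666756) averaged 198 ± 14.5 in E2A-/- cells and 156 ± 15.8 in Lyl1-/- cells (SD, n = 3 each), against 182 ± 32.7 in WT cells (SD, n = 2). Its WT arrays spanned 159 to 212 and overlapped both knockouts, while the E2A-/- arrays (183 to 212) lay above the Lyl1-/- arrays (147 to 174). That last log2 difference was 0.35 (SE 0.13, limma adjusted p = 0.486). Cdkn2d (chromosome 9, 21288459 to 21291421) ranged from 118 to 147 in E2A-/- cells and from 117 to 173 in Lyl1-/- cells, against 104 to 158 in WT cells, and no pair of genotypes separated. Cdkn3, a phosphatase that acts on CDKs, was the only tested gene of 4 further CDK inhibitors and partners. It was 0.01 above WT in E2A-/- cells and 0.37 above WT in Lyl1-/- cells (limma adjusted p = 0.446), without passing.

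Btg2 and Btg1 had their highest means in E2A-/- cells, but neither passed the test. Btg2 (1416250_at) had 154, 207 and 189 in E2A-/- cells and 129, 124 and 123 in Lyl1-/- cells, against 132, 120.2 and 127 in WT cells. Every E2A-/- array was above every other array, and the Lyl1-/- and WT arrays overlapped. The log2 difference of E2A-/- from WT was 0.54 (SE 0.13, interval 0.24 to 0.84, 1.46-fold, unadjusted p = 0.0030, limma adjusted p = 0.238), and that of Lyl1-/- from WT was 0.01 (interval -0.29 to 0.31, adjusted p = 0.997). The second Btg2 probe set (1448272_at) had 120.4, 129 and 111 in E2A-/- cells and 114, 113 and 105 in Lyl1-/- cells, against 102, 97.4 and 98.3 in WT cells. There both knockouts lay above WT without overlap, by 0.28 in E2A-/- cells (limma adjusted p = 0.470 in the fit over probe sets, which called 0.285% of them) and by 0.16 in Lyl1-/- cells (adjusted p = 0.736), so the probe sets differ on Lyl1-/- cells.

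Btg1 (1437455_a_at) had 698, 813 and 1011 in E2A-/- cells and 562, 594 and 619 in Lyl1-/- cells, against 695, 543 and 694 in WT cells. The lowest E2A-/- array lay just above the highest WT array, and all E2A-/- arrays lay above all Lyl1-/- arrays. The E2A-/- difference from WT was 0.44 on the log2 scale (SE 0.17, interval 0.05 to 0.82, limma adjusted p = 0.536), and the Lyl1-/- difference was -0.06 (interval -0.44 to 0.33, adjusted p = 0.979). A second probe set (1426083_a_at) gave 0.28 in E2A-/- cells and 0.14 in Lyl1-/- cells, with overlap, and the dimmest (1442018_at) was too dim to test. Within E2A-/-, arrays 2 and 3 were above array 1 for both BTG genes: 0.40 and 0.72 against 0.19 above the WT mean for Btg1, and 0.73 and 0.60 against 0.30 for Btg2. With E2A-/- 1 alone for its genotype the differences were 0.19 for Btg1 and 0.30 for Btg2, both smaller than with the arrays that carried granulocyte transcripts. Erythroid genes were also higher in E2A-/- cells (7 of 8 above WT, median 0.67), and the spiked controls, at 1381, 1941 and 3604 on E2A-/- 1, 2 and 3, stood in the same order as Btg1. The part of the granulocyte transcripts, the erythroid transcripts and the spiked controls in these differences was not tested. The Btg1 difference was 0.26 (limma adjusted p = 0.9999) without WT 2, the lowest WT array for Btg1 and one of those with the high actin ratio, and 0.25 with the mean of the probe sets (adjusted p = 0.692).

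The probe set annotated to Btg3 (chromosome 16, 78359860 to 78377181) and to Gm7334 together (1449007_at) had 404, 364 and 337 in E2A-/- cells and 341, 359 and 475 in Lyl1-/- cells, against 458, 483 and 478 in WT cells. The E2A-/- arrays were all below the WT arrays, by -0.37 on the log2 scale (SE 0.15, limma adjusted p = 0.544). The 2 genes cannot be told apart on it, so no value is given to Btg3. Partners of the BTG proteins were read from a list of 15 TOB, CCR4-NOT and methyltransferase genes, 13 of them tested. None was called in any comparison. At unadjusted p under 0.05, 1 was higher and 1 lower in E2A-/- cells and 0 were higher and 1 lower in Lyl1-/- cells, relative to WT, with list medians of -0.08 in E2A-/- cells and -0.10 in Lyl1-/- cells. Beside these stand 8.57% of all genes in E2A-/- cells and 8.80% in Lyl1-/- cells under that p. Cnot7, a catalytic deadenylase that BTG proteins bind, was at -0.22 in E2A-/- cells and -0.39 in Lyl1-/- cells (limma adjusted p = 0.581 and 0.233), and Prmt1, an arginine methyltransferase that binds Btg1 and Btg2, was at 0.60 in E2A-/- cells and 0.37 in Lyl1-/- cells (adjusted p = 0.554 and 0.763).

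Txnip had overlapping levels in E2A-/- and WT cells and its lowest levels in Lyl1-/- cells, a difference that did not pass the test. Its bright probe set (1415996_at) had 853, 1100 and 811 in E2A-/- cells and 561, 592 and 640.3 in Lyl1-/- cells, against 939, 815 and 1053 in WT cells. The E2A-/- and WT arrays overlapped, and all Lyl1-/- arrays lay below them. The log2 difference from WT was 0.02 in E2A-/- cells (interval -0.33 to 0.37, limma adjusted p = 0.992) and -0.59 in Lyl1-/- cells (SE 0.15, interval -0.94 to -0.24, unadjusted p = 0.0044, adjusted p = 0.276). The sign in E2A-/- cells turned in 10 of 24 alternatives. The second Txnip probe set (1415997_at), with 77.3 to 88.1 on all arrays near the array median of 77.9 to 79.2, gave -0.06 in E2A-/- cells and 0.06 in Lyl1-/- cells. There every Lyl1-/- array (86.0, 88.1 and 86.0) lay above every other array (77.3 to 85.4), so the lower level rests on 1 probe set. With the mean of both probe sets, the Lyl1-/- difference was -0.26 (limma adjusted p = 0.438).

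Of 12 further genes of the arrestin and thioredoxin system, 10 were tested and 0 called, with 0 past an unadjusted p of 0.05 in E2A-/- cells and 1, lower, in Lyl1-/- cells relative to WT. Among all genes, 8.57% were past it in E2A-/- cells and 8.80% in Lyl1-/- cells. The list medians were -0.08 in E2A-/- cells and -0.13 in Lyl1-/- cells. Arrdc3, an arrestin-domain gene related to Txnip, was at -0.36 in E2A-/- cells and -0.51 in Lyl1-/- cells (limma adjusted p = 0.701 and 0.491), and Txn1, the thioredoxin that Txnip binds, at -0.07 in E2A-/- cells and -0.17 in Lyl1-/- cells (adjusted p = 0.951 and 0.784). Mlxip, which encodes the glucose-responsive factor MondoA that drives Txnip, was at 0.05 in E2A-/- cells and -0.05 in Lyl1-/- cells (adjusted p = 0.973 in both).

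**Figure D2:**
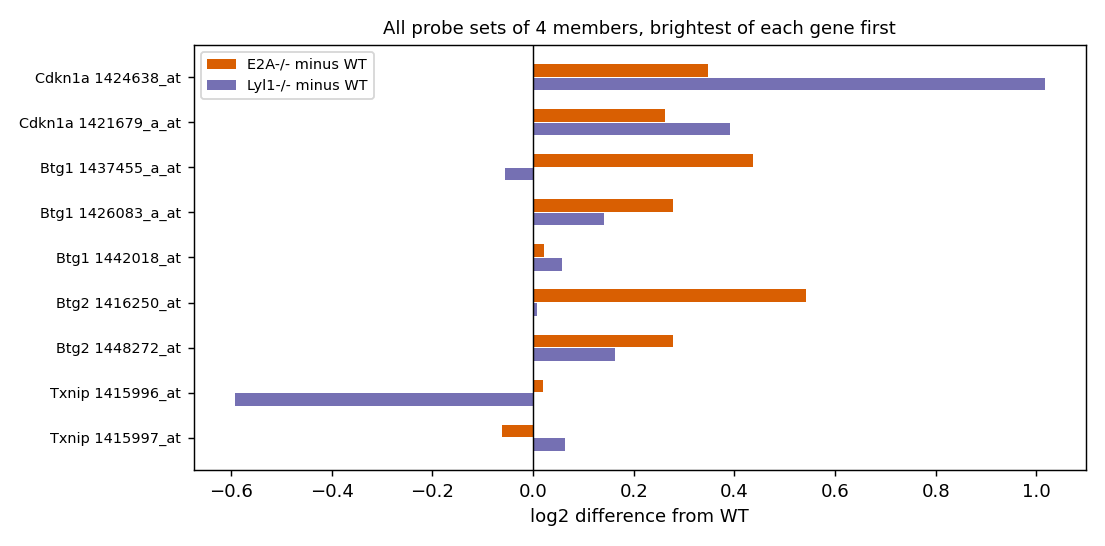
Log2 difference of E2A-/- (upper bar) and Lyl1-/- (lower bar) from WT for every probe set annotated to Cdkn1a, Btg1, Btg2 or Txnip alone. The 2 Cdkn1a probe sets share a direction (1.02 and 0.39 in Lyl1-/- cells), while the 2 Txnip probe sets do not.

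The G-type cyclins gave no call. Ccng1 (chromosome 11, 40748552 to 40755309), which recruits a phosphatase to Mdm2, averaged 751 ± 7.23 in E2A-/- cells and 705 ± 67.6 in Lyl1-/- cells (SD, n = 3 each), against 671 ± 60.0 in WT cells (SD, n = 2). The E2A-/- arrays lay just above the WT arrays, by 0.17 on the log2 scale (interval -0.09 to 0.42, limma adjusted p = 0.799). Ccng2 (chromosome 5, 93267573 to 93276231), an unconventional cyclin linked to cell cycle exit, averaged 264 ± 36.3 in E2A-/- cells and 216 ± 37.9 in Lyl1-/- cells (SD, n = 3 each), against 226 ± 0.327 in WT cells (SD, n = 2). Both knockouts overlapped WT. The remaining probe sets of these cyclins were near or below the array median or, for 1450016_at of Ccng1, highest on WT 2 (156) and E2A-/- 2 (148), the arrays with the high actin ratio, whose part was not tested.

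Counted over the 9 tested genes, the comparison of E2A-/- with WT called 0, and 0.226% of all genes were called by limma at an adjusted p under 0.05. In that comparison 3 genes were higher at an unadjusted p under 0.05 (8.57% of all genes, both directions), and for 4 genes the arrays did not overlap (Cdkn1a, Btg1, Btg2 and Ccng1, all higher, against 22.4% of all genes and 9.70% in that direction). All 9 differences were above 0, with a median of 0.21 on the log2 scale, beside -0.01 over all genes. The signs of Cdkn2c, Cdkn2d and Txnip turned in 2, 5 and 10 of 24 alternatives. The probe set that Btg3 shares with Gm7334, outside the 9 genes, was at -0.37. In Lyl1-/- against WT, 1 gene was called (Cdkn1a, against 0.192% of all genes), 1 higher and 1 lower at an unadjusted p under 0.05 (8.80% of all genes), and the same 2 genes, Cdkn1a and Txnip, did not overlap (26.7% of all genes, 12.2% higher and 14.5% lower). Differences were above 0 for 5 genes and below 0 for 4, with a median of 0.0072, beside -0.0048 over all genes. These comparisons share the WT arrays. The shares of all genes that did not overlap WT were counted with WT 1 and WT 3 as their mean, a looser rule than separation of every array.

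**Figure D3:**
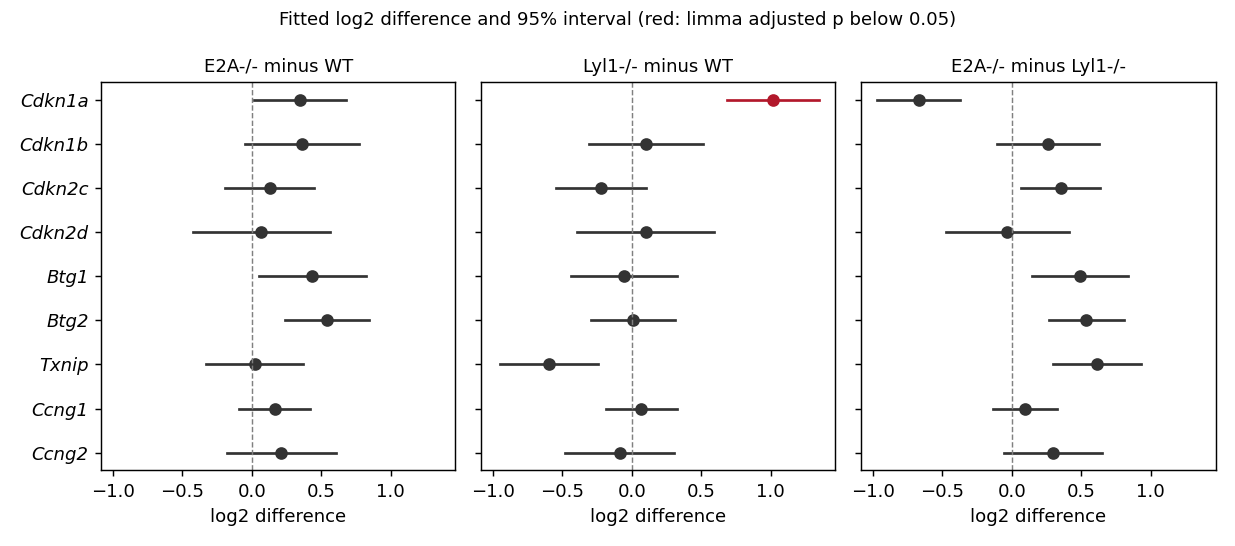
Fitted log2 difference (point) with its 95% interval (line) for the 9 tested genes in E2A-/- against WT, Lyl1-/- against WT and E2A-/- against Lyl1-/- cells. Red marks a limma adjusted p under 0.05, reached by Cdkn1a in Lyl1-/- against WT cells (1.02).

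Set directly against each other at the probe set that represents each gene, the knockouts differed in opposite directions for Cdkn1a and for Btg1, Btg2 and Txnip. No difference passed the test over all genes. Cdkn1a was -0.67 on the log2 scale in E2A-/- relative to Lyl1-/- cells (SE 0.13, interval -0.97 to -0.37, unadjusted p = 0.00077, limma adjusted p = 0.201). Txnip was 0.61 higher in E2A-/- cells (SE 0.14, interval 0.30 to 0.93, unadjusted p = 0.0019, adjusted p = 0.287), Btg2 0.54 (SE 0.12, interval 0.27 to 0.81, unadjusted p = 0.0017, adjusted p = 0.282) and Btg1 0.49 (SE 0.15, interval 0.15 to 0.83, unadjusted p = 0.011, adjusted p = 0.419). For each of the 4 genes the 3 E2A-/- arrays did not overlap the 3 Lyl1-/- arrays at that probe set. At the second probe sets the arrays overlapped for Cdkn1a (-0.13), Btg2 (0.12) and Btg1 (0.14). There Txnip was at -0.13, the reverse sign, and every Lyl1-/- array lay above every E2A-/- array. Among the 9 genes, 0 were called (0.117% of all genes), 4 were higher and 1 lower at an unadjusted p under 0.05 (8.64%), and 5 did not overlap (12.2%), 4 higher with Cdkn2c among them (5.73%) and 1 lower (6.45%). Without Lyl1-/- 3, the difference of Cdkn1a was -0.82 and passed (limma adjusted p = 0.0247). Averaging each gene's probe sets gave differences of -0.40 for Cdkn1a, 0.24 for Txnip, 0.33 for Btg2 and 0.20 for Btg1. On arrays without Xist signal they were -0.37 for Cdkn1a and 0.38 for Txnip, and without E2A-/- 2 and 3 they were 0.29 for Btg2 and 0.24 for Btg1. Of the 8 tested erythroid genes 8 were higher in E2A-/- than in Lyl1-/- cells (6 at an unadjusted p under 0.05, 0 called, median 0.81), and their part in these differences was not tested.

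At the probe set that represents each gene, the differences of these 4 genes came from different groups. For Cdkn1a both knockouts were above WT, with Lyl1-/- farther. For Btg1 and Btg2 E2A-/- cells were above WT and Lyl1-/- cells near it, and for Txnip E2A-/- cells were near WT and Lyl1-/- cells below it. The order of means was therefore Lyl1-/-, E2A-/- and WT for Cdkn1a, from high to low. For Btg2 it was E2A-/- above Lyl1-/- and WT, and for Btg1 E2A-/- above WT and Lyl1-/-, the lower 2 groups overlapping in each case. For Txnip it was E2A-/- and WT, which overlapped, above Lyl1-/-. The second probe sets of Btg1, Btg2 and Txnip put Lyl1-/- cells above WT, by 0.14, 0.16 and 0.06. The place of Lyl1-/- cells near or below WT therefore rests on 1 probe set per gene, as does the whole order for Txnip. E2A-/- cells had the highest mean at the second probe sets of Btg1 and Btg2 too, 0.28 above WT in each, but their arrays overlapped the Lyl1-/- arrays there.

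**Figure D4:**
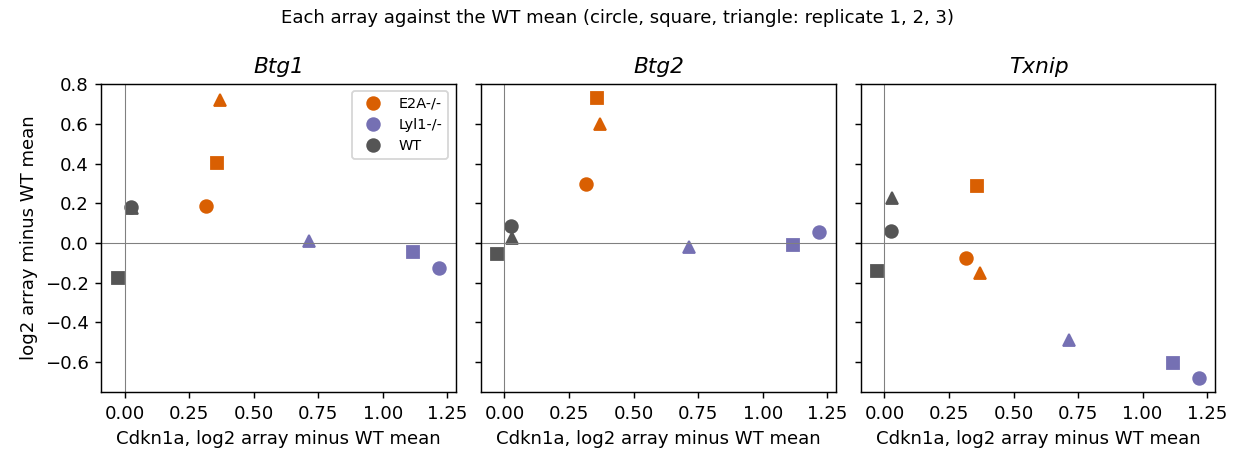
Each array's log2 intensity minus the WT mean, at the probe set that represents each gene. Cdkn1a is on the horizontal axis and Btg1, Btg2 or Txnip on the vertical axis. The Lyl1-/- arrays lie at the right (Cdkn1a 0.71 to 1.22), near 0 for Btg1 and Btg2 and between -0.68 and -0.49 for Txnip, and the E2A-/- arrays lie at 0.31 to 0.37 for Cdkn1a and above 0 for Btg1 and Btg2.

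The cell cycle genes around these 10 genes gave no call in either knockout. Of 19 G1 cyclins, kinases and pocket proteins, all tested, 2 were higher and 0 lower in E2A-/- cells and 3 higher and 1 lower in Lyl1-/- cells at an unadjusted p under 0.05, relative to WT, with medians of 0.01 in E2A-/- cells and 0.09 in Lyl1-/- cells. The share of all genes under that p was 8.57% in E2A-/- cells and 8.80% in Lyl1-/- cells. Ccne2, the E-type cyclin that activates Cdk2 at S phase entry, was 0.52 above WT in E2A-/- cells and 0.42 in Lyl1-/- cells (limma adjusted p = 0.238 and 0.373). E2f2, an activator of S phase genes, was at 0.38 in E2A-/- cells and 0.33 in Lyl1-/- cells (adjusted p = 0.343 and 0.399), and Ccnd3, a D-type cyclin, at 0.04 in E2A-/- cells and 0.68 in Lyl1-/- cells (adjusted p = 0.982 and 0.258). Rb1, the pocket protein that holds E2F factors in check, was at -0.41 in E2A-/- cells and -0.49 in Lyl1-/- cells (adjusted p = 0.623 and 0.514).

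Proliferation genes did not pass either. Of 19 tested S phase genes (20 listed), 2 were higher and 0 lower in E2A-/- cells and 1 higher and 1 lower in Lyl1-/- cells at an unadjusted p under 0.05, with medians of 0.0032 in E2A-/- cells and 0.08 in Lyl1-/- cells. Under the same p were 8.57% of all genes in E2A-/- cells and 8.80% in Lyl1-/- cells. Rrm2, a ribonucleotide reductase subunit, was at 0.56 in E2A-/- cells and 0.49 in Lyl1-/- cells (limma adjusted p = 0.531 and 0.564), and Mcm7, a subunit of the replicative helicase, at -0.13 in E2A-/- cells and -0.91 in Lyl1-/- cells (adjusted p = 0.944 and 0.198). Of 19 tested G2 and M phase genes (20 listed), 0 were higher and 4 lower in E2A-/- cells and 2 higher and 2 lower in Lyl1-/- cells, with medians of -0.11 in E2A-/- cells and 0.03 in Lyl1-/- cells. The 4 in E2A-/- cells were Mki67, the proliferation antigen, at -0.39, the mitotic cyclin Ccnb2 at -0.58, and the spindle proteins Nusap1 and Tpx2 at -0.37 and -0.36 (adjusted p between 0.406 and 0.578). The 2 lower in Lyl1-/- cells were Mki67 and Nusap1 as well, at -0.29 and -0.36 (limma adjusted p = 0.568 and 0.466). Ccnb2 and Tpx2 were at -0.19 and -0.08 in Lyl1-/- cells.

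Genes under the same textbook regulators, or quick to respond to signals, were read from 3 more lists. Of 17 tested p53 genes and targets (25 listed), 0 were higher and 1 lower in E2A-/- cells and 0 passed in either direction in Lyl1-/- cells at an unadjusted p under 0.05. The one was Xpc, a DNA damage sensor, at -0.63 in E2A-/- cells (limma adjusted p = 0.125) and -0.23 in Lyl1-/- cells. Mdm2, the ubiquitin ligase that p53 induces, was at -0.09 in E2A-/- cells and -0.03 in Lyl1-/- cells (adjusted p = 0.924 and 0.984). The part of p53 in the level of Cdkn1a was not tested. The p53 list medians were -0.0039 in E2A-/- cells and -0.06 in Lyl1-/- cells. Of 16 tested FOXO and quiescence genes (17 listed), 0 passed the unadjusted threshold in E2A-/- cells and 1 was higher and 1 lower in Lyl1-/- cells, with medians of 0.08 in E2A-/- cells and -0.03 in Lyl1-/- cells. Those in Lyl1-/- cells were Foxo3 at 0.78 and Foxo1 at -0.45 (limma adjusted p = 0.542 and 0.554). Of 11 tested immediate early genes (15 listed), which respond to handling and signalling, 0 passed in either knockout and the medians were -0.07 in E2A-/- cells and -0.04 in Lyl1-/- cells. Over all genes the medians were -0.01 in E2A-/- cells and -0.0048 in Lyl1-/- cells, and 8.57% and 8.80% of genes passed the unadjusted threshold there.

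Between the knockouts, no gene of these lists was called either. In E2A-/- relative to Lyl1-/- cells, 0 were higher and 3 lower among the G1 genes, 1 higher and 1 lower among the S phase genes and 0 higher and 2 lower among the G2 and M phase genes at an unadjusted p under 0.05. In this comparison 8.64% of all genes were under it, both directions. Of the 19 tested G2 and M phase genes 17 were below 0, with a median of -0.12 beside -0.0084 over all genes. Ccnd3 was at -0.64 (limma adjusted p = 0.314), Ccna2, the cyclin of S and G2 phase, at -0.37 (adjusted p = 0.373) and Mcm7 at 0.78 (adjusted p = 0.290). Among p53 genes 2 were higher and 1 lower, among FOXO and quiescence genes 3 were higher and 0 lower, and among immediate early genes 0 passed in either direction.

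Genes whose log2 levels followed those of the 4 genes most closely were sought over the 8 samples among 5941 genes with a range of at least 0.5. For Cdkn1a these were Rab44, a Rab-family GTPase, Itgb3, the integrin beta 3 chain, and Fcer1g, the Fc receptor gamma chain (r = 0.966, 0.964 and 0.963). Rab44 had 216, 218 and 231 in E2A-/- cells and 508, 408 and 235 in Lyl1-/- cells, against 128, 114 and 133 in WT cells. For Btg2 they were Pcca, a subunit of propionyl-CoA carboxylase, the chemokine Ccl5 and S100a10, an annexin partner (r = 0.952, 0.948 and 0.947). For Btg1 they were Crybg3, the histone variant gene Macroh2a2 and Txlnb (r = 0.962, 0.960 and 0.936), and for Txnip the lymphocyte receptor gene Ly9, Avl9 and Rnf141 (r = 0.959, 0.957 and 0.953). Pcca had 523, 622 and 602 in E2A-/- cells and 374, 397 and 363 in Lyl1-/- cells, against 439, 407 and 438 in WT cells. These are the highest values among 5941 genes, over few samples that share genotype, and describe the arrays without a test.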

How the data were processed

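Per genotype, 3 arrays of sorted mouse progenitors were analysed. The deposited values are 1 linear intensity per probe set and array, made by the authors with RMA and oligo, per the submitters' processing notes; their versions and parameters are not given in the sources used here. A plan had assumed log2 values, so log2 of the intensity was taken without a pseudocount. Of 45101 probe sets, 64 controls were left out, and 34945 had 1 gene in GEO's platform annotation, 932 several and 9160 none. A gene was represented by its brightest probe set and tested if 3 or more arrays put it above their median. WT 1 and WT 3, whose log2 differences hardly grew with brightness, were averaged, leaving 8 samples and 5 residual degrees of freedom. Genotypes were compared in R 4.3.3 with limma 3.58.1 (lmFit, eBayes), tested on simulated data, with Benjamini-Hochberg adjustment over all tested genes and a threshold of 0.05. The number of arrays limits the precision. The 24 alternatives covered normalization, filter, background, probe set choice, variance, sample choice, replicate block and Xist signal. The 10 genes and the gene lists were chosen with earlier results of these data known. By rule the text names the 10 genes, the genotype checks, up to 4 genes per list and comparison by smallest p, and the 3 closest genes in level for 4 of the 10. Mdm2, Txn1 and Mlxip, and the marker genes given with values, were named after their values had been seen. Promoters are RefSeq windows on GRCm38.p6.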

Additional observations from a re-analysis of the deposited data

How the results depend on the processing

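Each result was recomputed under 24 alternatives. In E2A-/- against WT, 0 of the 9 tested genes were called under any of them. Cdkn1a in Lyl1-/- against WT kept its direction in all 24 and lost its call in 14, so that the count of called genes was 0 there and 1 otherwise. Leaving out 1 array gave 0.92 to 1.17, with counts of 0 to 1. The other losses were at 1.02 without E2A-/- 2 and 3, with only the groups compared and with no filter, 0.99 without WT 2 and E2A-/- 2, 0.86 with Xist signal as a covariate, 1.03 with median centring, 0.70 with the mean of probe sets and 0.71 on arrays without Xist signal, an alternative chosen after seeing the data. For Cdkn1a in E2A-/- against Lyl1-/-, leaving out 1 array gave -0.82 to -0.57, with 0 to 1 genes called. Fits that leave arrays out can also have fewer samples, and the cause of these changes was not tested.

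Small differences changed sign. Txnip in E2A-/- against WT (0.02) was -0.027 with 9 separate arrays and with the replicate block, -0.078 without E2A-/- 2 and 3, -0.26 without WT 2 and E2A-/- 2, -0.021 with the Xist covariate and with the mean of probe sets, -0.11 without Xist arrays, and -0.12 to 0.11 leaving out 1 array. In the same comparison Cdkn2c was -0.10 without WT 2 and E2A-/- 2 and -0.053 to 0.19 leaving out 1 array, and Cdkn2d was -0.027 with 9 arrays or the block, -0.13 without WT 2 and E2A-/- 2, and -0.22 to 0.16 leaving out 1 array. In Lyl1-/- against WT, Btg1 was 0.048 with the mean of probe sets and 0.011 without Xist arrays. Btg2 was -0.011 with 9 arrays or the block, -0.047 without WT 2 and E2A-/- 2, -0.10 with the Xist covariate, -0.023 without Xist arrays, and -0.047 to 0.022 leaving out 1 array. Ccng1 was -0.021 without WT 2 and E2A-/- 2, -0.0067 with the covariate, -0.060 with the mean of probe sets, -0.094 without Xist arrays, and -0.021 to 0.15 leaving out 1 array. Ccng2 was 0.072 without Xist arrays and -0.16 to 0.070 leaving out 1 array, Cdkn1b -0.0071 to 0.25, and Cdkn2d -0.19 without WT 2 and E2A-/- 2, -0.11 without Xist arrays and -0.19 to 0.21 leaving out 1 array. In E2A-/- against Lyl1-/-, Cdkn1b was -0.042 without E2A-/- 2 and 3 and -0.033 without Xist arrays, and Cdkn2d was 0.0047 and 0.27 in those 2 fits, 0.057 without WT 2 and E2A-/- 2, and -0.14 to 0.14 leaving out 1 array. The cause was not tested.

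Deviations of same-numbered arrays from their group means were weakly correlated (r between -0.14 and 0.22). The highest r was that of WT 1 with E2A-/- 1. For arrays with different numbers r was between -0.22 and 0.195. These values do not settle whether the numbers pair the arrays. With the replicate number as a block, Cdkn1a in Lyl1-/- cells was at 1.01 (limma adjusted p = 0.0270), no other of the 9 tested genes was called, and the counts over all genes were 60 in E2A-/- and 55 in Lyl1-/- against WT, beside 27 and 23. With 9 separate arrays and no block they were 97 and 93. Over the alternatives, all genes called in E2A-/- against Lyl1-/- ran from 0 to 23, beside 14.

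With 3 or fewer samples per genotype, small changes can be missed, and fits that leave 1 array in a genotype assume that it varies like the others.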
